A study of Homo sapiens with 12 samples.

Results

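The cytosolic ribosome is built from the proteins described here, which fall into a large and a small subunit. The genes were chosen by name: symbols starting with RPL or RPS and ending in digits, with at most a closing A, X or L, and also RPLP0, RPLP1, RPLP2 and RPSA. A symbol had to be present in the tables of both cell lines, with a mean of at least 1 FPKM (a read level corrected for transcript length and library size) in a line. Of 81 symbols that matched by name, 79 were in both tables and 78 passed, out of 26115 genes present in both. These 78 members comprise 46 large-subunit and 32 small-subunit genes, among them 77 genes of the standard cytosolic ribosome and RPS27L, a paralog of RPS27. RPS27L was the member nearest the threshold, at a mean of 6.63 FPKM in KYSE410 and 9.98 FPKM in KYSE150. RPL3L, a muscle paralog of RPL3, fell short of it, at 0.0515 FPKM in KYSE410 and 0.0787 FPKM in KYSE150. RPL39L and RPL10L, which are paralogs of RPL39 and RPL10, were listed for KYSE150 alone and KYSE410 alone.

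The libraries came from KYSE410 and KYSE150, established human esophageal squamous carcinoma lines that the labels give as wild type. Each line was held at 0.5% oxygen (hypoxia, labelled time point 48) or at 21% oxygen (normoxia, labelled time point 0, whereas the design text names 48 hours for either oxygen level). Each of the 4 groups held 3 libraries, made from TRIzol RNA by mRNA capture on beads. The labels do not state whether replicates were cultured apart, and the p-values therefore cover library-to-library spread that may be technical.

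Ribosomal proteins assemble with ribosomal RNA in fixed proportions, and their mRNAs are among the most abundant in a dividing cell. Most of these mRNAs begin with a cytosine followed by an unbroken run of pyrimidines, called a 5′ terminal oligopyrimidine or TOP tract. Through this tract their translation, and through LARP1 their stability, follow the nutrient-sensing kinase mTOR, which hypoxia is known to restrain. Messenger RNA level and ribosome synthesis are therefore separate quantities for these genes, and only the first was measured.

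Depth is unknown, because FPKM carries no read counts. FPKM sums ran from 351501 to 425094 per library, with 22787 to 24667 genes above 0. The hypoxia check genes (6 of 6, including CA9 and NDRG1) were called higher in hypoxia in both lines. Of 7 squamous markers, 6 reached a mean of 1 FPKM in KYSE410, but only KRT17 did in KYSE150, where KRT5, KRT14 and TP63 stayed under 0.4 FPKM in every library. Summed leukocyte markers were at most 0.811 FPKM in any library. KYSE150 normoxia library 2 stood apart from its group. Its members lay a median of 0.45 above the mean of the other 2 normoxia libraries on the log2 scale, and all 78 were highest there among the normoxia libraries. Non-members in that library shifted by 0.26, 0.37, 0.26, 0.04 and -0.26 over 5 classes of transcript length, short to long, while members shifted by 0.41 to 0.47 in every class. In KYSE410 the labels' sheet numbers run from 56 to 58 for hypoxia and from 38 to 40 for normoxia, so oxygen cannot be told apart from a library set inferred from those numbers. The KYSE150 libraries run from 50 to 55, so the KYSE410 normoxia group alone lies apart by number.

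The annotated starts of members at both ends of the response are printed first, because the TOP tract is what most of these mRNAs share. Each line gives 30 bases before and 20 bases from the RefSeq transcription start on GRCh38.p14, 5′ to 3′ on the gene's strand. Capitals mark a start at C followed by at least 4 more C or T. RPL7A, RPL28, RPL34 and RPL38 had the largest log2 changes in KYSE410, and RPS7 and RPS26 the smallest.
RPL7A: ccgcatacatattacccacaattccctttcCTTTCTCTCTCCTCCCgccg
RPL28: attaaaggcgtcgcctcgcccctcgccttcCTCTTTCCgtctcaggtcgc
RPL34: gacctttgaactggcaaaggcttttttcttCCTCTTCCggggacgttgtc
RPL38: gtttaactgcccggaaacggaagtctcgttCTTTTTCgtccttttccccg
RPS7: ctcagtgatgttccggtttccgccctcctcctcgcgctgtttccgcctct
RPS26: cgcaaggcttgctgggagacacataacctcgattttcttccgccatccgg

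The windows lie at chr9:133348188-133348237 for RPL7A, chr19:55385902-55385951 for RPL28, chr4:108620546-108620595 for RPL34 and chr17:74203648-74203697 for RPL38. RPS7 lies at chr2:3575230-3575279 and RPS26 at chr12:56041888-56041937, and all 6 are on the plus strand. The pyrimidine run from the first C is 16 bases in RPL7A, 8 in RPL28 and in RPL34 and 7 in RPL38, against 3 in RPS7. RPS26 has no C at its annotated start. RPL3, next smallest in KYSE410 with a log2 change of 0.68, is not printed and has a run of 4, just short of the mark. RPL34 has a second annotated start, which begins with T.

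Among the 63 members with a RefSeq promoter sequence, 46 (73%) had such a pyrimidine start in at least 1 window, against 5.14% of all 27305 genes with one and 8.7% of 69 mitochondrial ribosomal protein genes. Other motifs were searched on both strands of the whole window, which spans 250 bases before to 50 bases after the start. TATAAA was found for 7.94% of members and 14% of all genes, and CCGGAAG, a core of ETS-factor sites, for 36.5% of members and 12.2% of all genes. ACGTG, the core of hypoxia response elements and also part of the CACGTG E-box, was found for 33.3% and 24.9%. AAGATGGC, a YY1-type motif, was found for 9.52% and 3.52%. Among the 69 mitochondrial ribosomal protein genes the shares were 4.35% for TATAAA, 43.5% for CCGGAAG, 34.8% for ACGTG and 30.4% for AAGATGGC. The last 3 were thus at least as frequent there as among members. These are matches of letters to annotated windows and not measured starts or binding sites. In KYSE410 the median log2 change was 0.97 (range 0.70 to 1.67) over the 46 members with the pyrimidine start and 0.78 (0.56 to 1.29) over the 17 without it. The ranges overlapped over most of their width, and RPS28, at 1.29, was among the members without that start. The 6 printed starts are the extremes and not a sample of the members. The corresponding medians in KYSE150 were 0.32 and 0.22.

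In KYSE410 every ribosomal protein gene was higher in hypoxia. Members took 21.8%, 22.2% and 22.4% of all FPKM in the hypoxia libraries, against 13.3%, 13.2% and 13.3% in the normoxia libraries. Every hypoxia library lay above every normoxia library. The median member had 1044, 1057 and 1099 FPKM in hypoxia, against 515, 533 and 532 FPKM in normoxia. All 78 members were called higher (limma, Benjamini-Hochberg adjusted p under 0.05), against 31.2% of all 12054 genes tested, while 51.9% of all genes were called lower. The groups were apart for all 78, against 31.9% of all genes with every hypoxia library above every normoxia library. The median log2 change, on the log2(FPKM + 1) scale used throughout, was 0.99 over the 46 large-subunit genes and 0.92 over the 32 small-subunit genes, beside -0.21 over all tested genes. Scaling by the median of ratios put the all-gene median at 0.00 and the member median at 1.22. Under quantile normalization, which sets all libraries to the same distribution, the member median was 0.31, with 64 called higher and 2 lower. Of all genes, 40.9% were then called higher and 41.4% lower. In bulk libraries, fewer cells of a type and less RNA per cell cannot be told apart. Summed over 7 squamous markers, of which 6 were measured at a mean of 1 FPKM, KYSE410 had 1154 to 1170 FPKM in hypoxia, against 312 to 320 FPKM in normoxia. Of those 6, 5 were called higher and 1 lower, with log2 changes from -0.78 to 2.94. Over 5 epithelial markers, of which 4 reached a mean of 1 FPKM, KYSE410 had 1051 to 1104 FPKM in hypoxia, against 1915 to 2038 FPKM in normoxia. All 5 fibroblast markers stayed below that mean. The part of these shifts in the members' values was not tested.

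**Figure D1:**
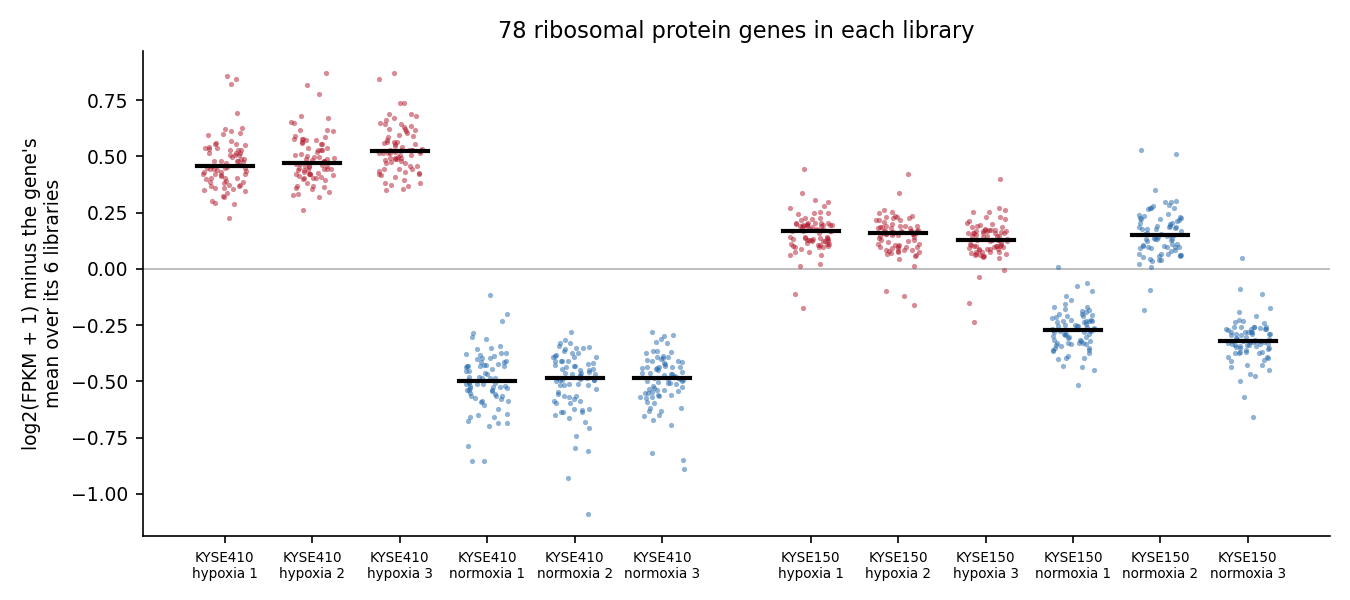
Deviation of each of the 78 genes from its own mean over the 6 libraries of its line, on the log2(FPKM + 1) scale, by library; points are genes and bars are medians. KYSE410 hypoxia libraries lie above all KYSE410 normoxia libraries by their medians, while KYSE150 normoxia library 2 lies level with the KYSE150 hypoxia libraries.

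RPL28 and RPL7A led in KYSE410. RPL28 (ENSG00000108107.14, chromosome 19, 55385345 to 55403250, plus strand, GENCODE 29 on hg38) encodes a protein of the large subunit. It had 263, 258 and 263 FPKM in KYSE410 hypoxia libraries, against 80.3, 82.9 and 80.5 FPKM in normoxia libraries. The groups were far apart, with a log2 change of 1.67 ± 0.03 (SE, n = 3 per group; limma, adjusted p = 2.28e-09). RPL7A (ENSG00000148303.16, chromosome 9, 133348214 to 133351426, plus strand) encodes a large-subunit protein, and 4 snoRNA genes lie within it. Its values were 2008, 1946 and 2079 FPKM in KYSE410 hypoxia, against 629, 653 and 643 FPKM in normoxia. This was a log2 change of 1.65 ± 0.03 (limma, adjusted p = 4.58e-09).

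RPL34 was less even between libraries. It had 561, 567 and 458 FPKM in hypoxia, against 249, 145 and 166 FPKM in normoxia, and its log2 change of 1.53 carried an SE of 0.18. RPL38, known in mice for its role in translating Hox mRNAs, had 273, 264 and 281 FPKM in hypoxia, against 107.2, 100 and 103.5 FPKM in normoxia. Its log2 change was 1.39 ± 0.04 (SE). RPS29, a small-subunit zinc-binding protein, was also uneven in normoxia, with 398, 425 and 420 FPKM in hypoxia against 263, 149 and 192 FPKM in normoxia. RPS21 showed the same kind of spread, with 1073, 1123 and 1144 FPKM in hypoxia against 717, 530 and 599 FPKM in normoxia. For RPL34, RPS29 and RPS21 the normoxia values differed between libraries more than for RPL28 or RPL7A, yet no normoxia library reached a hypoxia library.

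The smallest changes in KYSE410 were still called. RPS7 (ENSG00000171863.14, chromosome 2, 3575205 to 3580920, plus strand) is a small-subunit protein that also binds the p53 regulator MDM2. Its levels were 1431, 1465 and 1558 FPKM in hypoxia, against 1042, 974 and 1008 FPKM in normoxia, a log2 change of 0.56 ± 0.04 (SE) that became -0.21 under quantile normalization. RPS26, which lines the mRNA exit channel, had 146, 153 and 153 FPKM in hypoxia and 88.6, 97.8 and 97.1 FPKM in normoxia, a log2 change of 0.67. RPL3, which reaches the peptidyl transferase centre, had 1725, 1725 and 1801 FPKM in hypoxia and 1064, 1111 and 1101 FPKM in normoxia, a log2 change of 0.68 that became -0.13 under quantile normalization. RPS7 and RPL3 are the 2 members that quantile normalization called lower.

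Values moved less in KYSE150, and their reading turned on a single library. Members took 21.0%, 21.1% and 20.9% of all FPKM in KYSE150 hypoxia libraries, against 16%, 19.1% and 15.7% in normoxia libraries. Normoxia library 2 lay closer to the hypoxia libraries than to its own group. With it, 22 members were called higher and 1 lower (limma), against 23.5% and 38.8% of all 12692 genes tested. Of these members, 37 had every hypoxia library above every normoxia library, against 27% of all genes. Without normoxia library 2, 75 members were called higher and 1 lower, against 28.6% and 45.8% of all genes, and RPL36 and RPL6 were the ones not called. Leaving out any other single KYSE150 library left 4 members called higher, against 19.5% to 22.2% of all genes. RPL7A, RPL28, RPL14 and RPS26 were called in all 5 of those fits. The median log2 change was 0.30 over large-subunit genes and 0.30 over small-subunit genes with all libraries, and 0.44 and 0.46 without normoxia library 2. Over all tested genes it was -0.13 and -0.14. Squamous markers, of which KRT17 alone of 7 reached a mean of 1 FPKM in KYSE150, summed to 406 to 444 FPKM in hypoxia, against 192 to 251 FPKM in normoxia. Epithelial markers (3 of 5 at that level) summed to 678 to 702 FPKM in hypoxia, against 552 to 716 FPKM in normoxia. Fibroblast markers (2 of 5, COL1A1 and PDGFRB) summed to 5.65 to 6.12 FPKM in hypoxia, against 7.98 to 8.18 FPKM in normoxia. The part of these shifts in the KYSE150 values was not tested.

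RPL7A had the largest change in KYSE150. It had 2534, 2498 and 2456 FPKM in KYSE150 hypoxia libraries, against 1300, 1640 and 1255 FPKM in normoxia libraries. Every hypoxia library exceeded every normoxia library, and the log2 change was 0.85 ± 0.13 (SE; limma, adjusted p = 0.000828), or 0.97 without normoxia library 2. RPL28 had 133, 133 and 126 FPKM in hypoxia, against 85.9, 107 and 66.4 FPKM in normoxia, a log2 change of 0.62 ± 0.16 (SE). RPL14, a large-subunit protein, had 108, 106 and 105 FPKM in hypoxia, against 71.6, 82.1 and 65.1 FPKM in normoxia. Its log2 change was 0.54 ± 0.09 (SE). RPS26 had 303, 292 and 287 FPKM in hypoxia, against 186, 253 and 182 FPKM in normoxia, a log2 change of 0.52 ± 0.13 (SE). For these 4 genes the groups did not overlap even with normoxia library 2 kept.

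At the other end, RPL36 had 342, 346 and 333 FPKM in KYSE150 hypoxia, against 354, 534 and 342 FPKM in normoxia. The groups overlapped, and the log2 change of -0.24 ± 0.16 (SE) did not pass (limma, adjusted p = 0.24). Reads of RPL36, a large-subunit protein, may be shared with HSD11B1L, which overlaps it on the same strand. RPL6 had 1181, 1076 and 1168 FPKM in hypoxia, against 1109, 1421 and 1099 FPKM in normoxia, with a log2 change of -0.07. RPS7 had 947, 943 and 912 FPKM in hypoxia, against 872, 1126 and 827 FPKM in normoxia, with a log2 change of 0.00. Without normoxia library 2 the RPS7 value was 0.14 and was called (limma, adjusted p = 0.00598), whereas under quantile normalization of all libraries it was -0.24 and called lower.

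**Figure D2:**
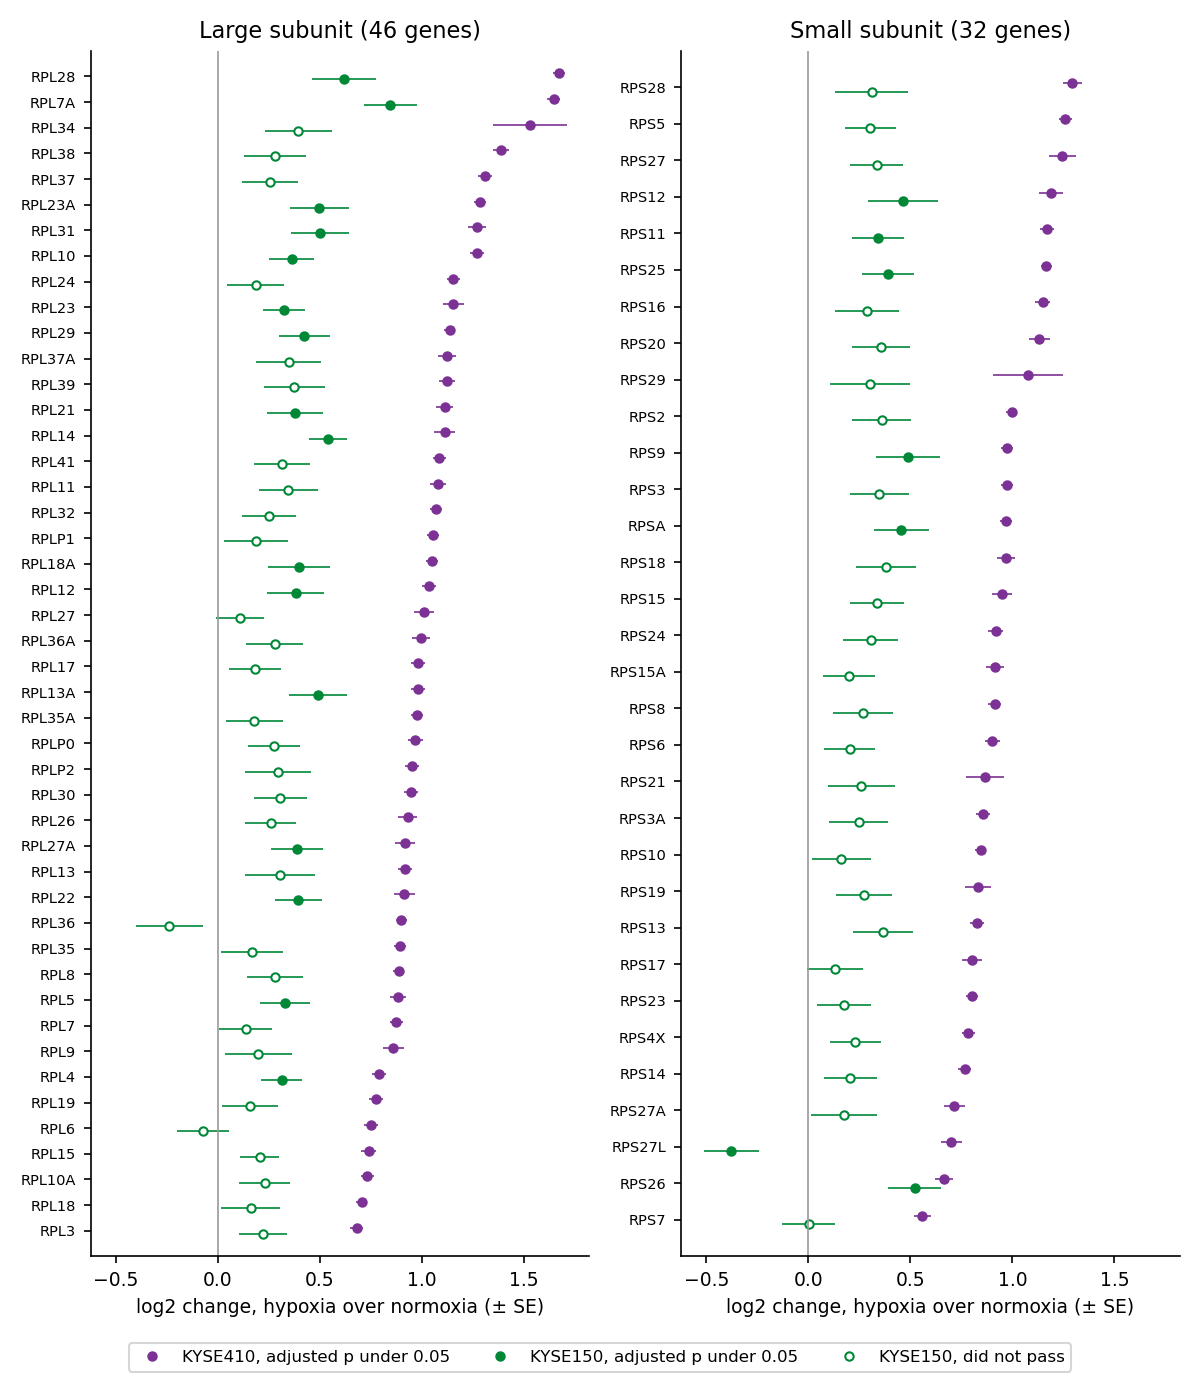
Log2 change in hypoxia over normoxia for each large-subunit (left) and small-subunit (right) gene, with the SE as bars, ordered by the change in KYSE410. Every KYSE410 value is above 0, from 0.56 for RPS7 to 1.67 for RPL28 (under quantile normalization 72 of the 78 stay above 0, and RPS7 and RPL3 are among those that do not), and 22 KYSE150 values pass above 0 and RPS27L below it.

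The response was larger in KYSE410 for 77 of the 78 members (limma, difference in response KYSE410 minus KYSE150, adjusted p under 0.05), and smaller for none. Of all 13421 genes in the joint fit, 27.3% were called with a more positive and 35.4% with a more negative difference. The median difference was 0.73 over large-subunit and 0.63 over small-subunit genes, against -0.08 over all genes. The largest differences were those of RPL34 (1.14 ± 0.28, SE), RPL36 (1.14 ± 0.18), RPL38 (1.11 ± 0.17) and RPS27L (1.08 ± 0.15). RPS26 had the smallest, 0.14 ± 0.15, and was the member that did not pass (limma, adjusted p = 0.405). RPL3 (0.46), RPS13 (0.46) and RPL4 (0.48) came next, and the sign of RPL3 and RPS13 turned under quantile normalization (-0.24 and -0.07). Quantile normalization left 35 members called more positive and 1 more negative, against 29.3% and 30% of all genes. Removing the trend with length and GC content left 60 more positive, against 27.8% of all genes. Without KYSE150 normoxia library 2, 76 were called more positive, against 29.8% of all genes. The KYSE410 normoxia libraries have sheet numbers 38 to 40 and all others 50 to 58. The difference in response therefore cannot be told apart from a library set inferred from those numbers.

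In normoxia most members were lower in KYSE410 than in KYSE150. By limma, 3 were called higher and 51 lower, against 40.3% and 39.3% of all genes. RPL9 (885.8 ± 45.5 FPKM in KYSE410 and 445 ± 112 FPKM in KYSE150, SD, n = 3 each), RPL17 and RPS28 were the 3 higher ones. The lowest were RPL37, with 178, 184 and 182 FPKM in KYSE410 against 580, 689 and 481 FPKM in KYSE150, and RPS10, with 363, 363 and 368 FPKM in KYSE410 against 1006, 1396 and 984 FPKM in KYSE150. Their log2 differences were -1.66 and -1.61. RPL31 (-1.35) and RPL22 (-1.31) followed. RPL17 and RPS10 share their strand with the read-through genes RPL17-C18orf32 and RPS10-NUDT3, so their reads may be divided. Without KYSE150 normoxia library 2, 12 were called higher and 53 lower, against 41.3% and 40.7% of all genes. The tables were deposited separately, so these differences assume that FPKM is comparable between them. Sheet numbers were 38 to 40 for KYSE410 normoxia and 50 to 52 for KYSE150 normoxia, so line cannot be told apart from library set here.

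The median changes of large and small subunit genes lay close together in both lines. Large-subunit genes took 13.0%, 13.1% and 13.2% of all FPKM in KYSE410 hypoxia, against 7.78%, 7.77% and 7.78% in normoxia. Small-subunit genes took 8.86%, 9.03% and 9.13% in hypoxia, against 5.54%, 5.40% and 5.50% in normoxia. The ratio of the summed FPKM of large to small genes in KYSE410 was 1.46, 1.45 and 1.45 in hypoxia, against 1.40, 1.44 and 1.41 in normoxia. The median large gene over the median small gene was 0.974, 0.941 and 0.944 in hypoxia, against 1.04, 1.05 and 1.06 in normoxia, so the direction of the balance depended on whether sums or medians were used. In KYSE150 the ratio of sums was 1.32, 1.32 and 1.32 in hypoxia, against 1.33, 1.29 and 1.31 in normoxia, and the groups overlapped. The SD of the log2 changes among large-subunit genes was 0.23 in KYSE410 and 0.17 in KYSE150, and among small-subunit genes 0.19 and 0.16.

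To ask which genes left the common movement, each library's median member level was subtracted before the fit of hypoxia against normoxia. Higher and lower here describe a change above or below that of this median level, not the level of a gene. The members' own median change against it was -0.04 in KYSE410 and -0.05 in KYSE150, with 31 and 24 of 78 above 0. The reference thus favours lower calls. In KYSE410, 24 members were called higher and 30 lower in this sense (limma), against 4.28% and 90.4% of all genes. KYSE150 gave 8 higher and 28 lower, against 7.57% and 53.3% of all genes. Both lines shared 5 higher members (RPL14, RPL23A, RPL28, RPL31 and RPL7A), which were 20.8% of the KYSE410 list and 62.5% of the KYSE150 list. Of these 5, RPL7A alone kept its KYSE150 call whichever 1 library was left out. They shared 21 lower members, 70% and 75% of the lists.

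The log2 change of RPL7A was 0.64 ± 0.03 (SE) above that of the median member level in KYSE410 and 0.49 ± 0.03 in KYSE150. The change of RPL28 was 0.67 ± 0.03 above it in KYSE410 and 0.26 ± 0.09 in KYSE150. In KYSE150 the RPL28 call was lost on leaving out any 1 hypoxia library or normoxia library 3. The change of RPL34 was 0.52 above it in KYSE410. That call was lost on leaving out hypoxia library 1 or 2 or normoxia library 2 or 3. The change of RPS7 was 0.45 below that of the median member level in KYSE410 and 0.35 below it in KYSE150. Relative to that level, RPS26 and RPL24 moved in opposite directions in the 2 lines, with RPS26 at -0.34 ± 0.04 in KYSE410 and 0.17 ± 0.04 in KYSE150. The RPS26 call in KYSE150 was lost without hypoxia library 1, hypoxia library 2 or normoxia library 1. Changes below that of the median member level were those of RPS27L (-0.73), RPL36 (-0.59) and RPL6 (-0.43) in KYSE150, and RPL3 (-0.32) in KYSE410. Leaving out KYSE150 normoxia library 2 gave 14 higher and 33 lower members in that line, against 9.42% and 76.3% of all genes. Leaving out any 1 of its hypoxia libraries gave 3 higher and 19 to 21 lower, against 5.21% to 5.4% and 42.8% to 44.3%.

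**Figure D3:**
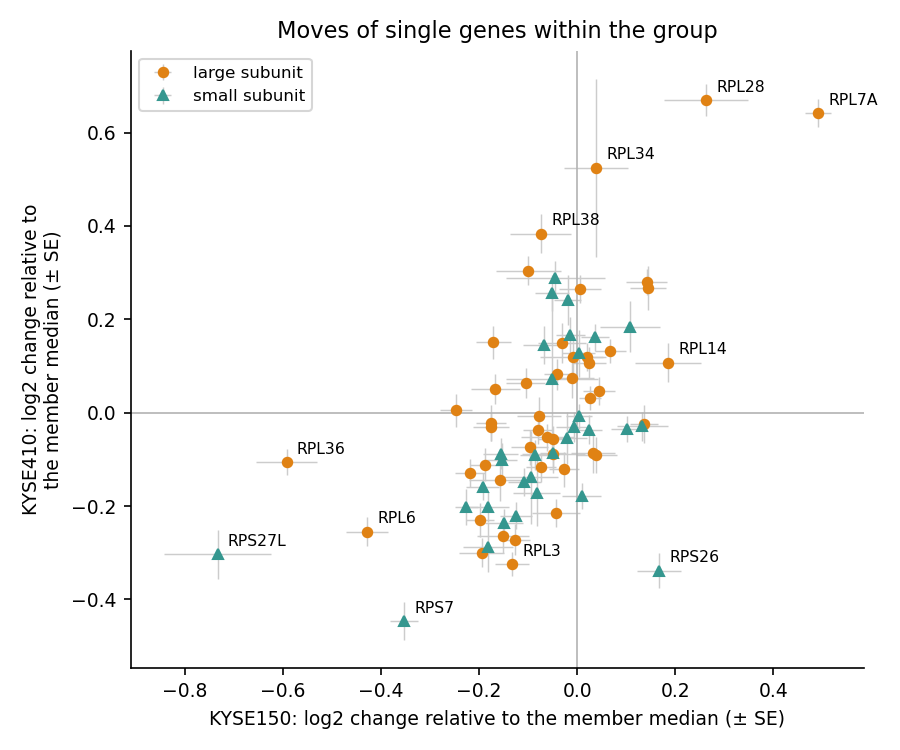
Log2 change relative to the median member in KYSE150 (horizontal) and KYSE410 (vertical), with SE bars, for large-subunit (circles) and small-subunit (triangles) genes. RPL7A and RPL28 lie above 0 on both axes, RPS7 and RPS27L below 0 on both, and RPS26 at 0.17 in KYSE150 and -0.34 in KYSE410.

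The stalk proteins RPLP0, RPLP1 and RPLP2, which recruit elongation factors, had KYSE410 log2 changes of 0.97, 1.06 and 0.95. Their KYSE150 values of 0.27, 0.19 and 0.29 did not pass, but all 3 passed without normoxia library 2. RPL5 and RPL11 bind 5S rRNA, and their free complex binds MDM2. RPL5 had 1209, 1235 and 1309 FPKM in KYSE410 hypoxia, against 698, 657 and 679 FPKM in normoxia, a log2 change of 0.88, and RPL11 changed by 1.08. In KYSE150 RPL5 changed by 0.33 (limma, adjusted p = 0.046), and RPL11 had 0.34, which did not pass. RPS6, the substrate of S6 kinases, had 932, 939 and 970 FPKM in KYSE410 hypoxia, against 502, 527 and 490 FPKM in normoxia, a log2 change of 0.90. RPSA, also known as the laminin receptor, changed by 0.97 in KYSE410 and 0.46 in KYSE150. RPL10A, which has MIR7111 inside it, changed by 0.73 in KYSE410 and had 0.23 in KYSE150, which did not pass.

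Some ribosomal proteins are made as fusions or fall outside the naming rule. RPS27A, made as a fusion with ubiquitin, had 757, 793 and 830.2 FPKM in KYSE410 hypoxia, against 508, 448 and 494 FPKM in normoxia. Its log2 change was 0.72 (-0.04 under quantile normalization), and 0.17 in KYSE150, which did not pass. FAU, whose product carries a small-subunit protein, changed by 0.95 in KYSE410 and had 0.18 in KYSE150, which did not pass, or 0.39 without normoxia library 2, which passed (limma, adjusted p = 2.91e-05). RACK1, the scaffold protein of the small-subunit head, changed by 0.84 in KYSE410 and 0.36 in KYSE150.

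Paralogs were set beside their parents, and their starts are printed because several lack the tract that the parent has. The same windows are shown for 3 parents and their paralogs, with capitals as before.
RPS27: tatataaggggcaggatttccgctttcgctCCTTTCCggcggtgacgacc
RPS27L: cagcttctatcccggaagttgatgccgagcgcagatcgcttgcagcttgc
RPL36A: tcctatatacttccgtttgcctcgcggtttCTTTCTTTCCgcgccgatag
RPL36AL: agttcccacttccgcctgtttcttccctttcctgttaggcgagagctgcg
RPL26: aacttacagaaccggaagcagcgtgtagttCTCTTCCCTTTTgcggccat
RPL26L1: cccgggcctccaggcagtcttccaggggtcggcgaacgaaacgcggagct

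These lie at chr1:153990732-153990781 (RPS27, plus), chr15:63157458-63157507 (RPS27L, minus), chrX:101390981-101391030 (RPL36A, plus), chr14:49620607-49620656 (RPL36AL, minus), chr17:8383174-8383223 (RPL26, minus) and chr5:172958699-172958748 (RPL26L1, plus). The parents start with a pyrimidine run of 7, 10 and 12 bases. RPS27L and RPL26L1 start with G, and RPL36AL has a run of 3. RPL26L1 has a second annotated start, which begins with A. RPL22L1 is different, with a pyrimidine run of 6 at its start, beside 7 in its parent RPL22.

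RPS27L (ENSG00000185088.13, chromosome 15, 63125872 to 63158021, minus strand) is known as a p53-inducible relative of RPS27. It had 8.14, 8.56 and 8.66 FPKM in KYSE410 hypoxia, against 4.61, 4.81 and 5.03 FPKM in normoxia, a log2 change of 0.70 ± 0.05 (SE). In KYSE150 it had 8.57, 8.68 and 8.18 FPKM in hypoxia, against 9.87, 14.4 and 10.2 FPKM in normoxia. All KYSE150 hypoxia values were the lower ones, with a log2 change of -0.38 ± 0.14 (SE; limma, adjusted p = 0.0399) or -0.22 without normoxia library 2. The call was lost on leaving out any 1 hypoxia library, with no filter, with the length and GC trend removed, and under median-of-ratios, non-member and quantile scaling, with the value negative each time. RPS27 itself had 1198, 1208 and 1233 FPKM in KYSE410 hypoxia, against 455, 538 and 544 FPKM in normoxia. RPS27L stood at 0.68%, 0.708% and 0.702% of RPS27 in KYSE410 hypoxia, against 1.01%, 0.893% and 0.923% in normoxia. In KYSE150 it stood at 0.649%, 0.673% and 0.652% in hypoxia, against 1.04%, 1.18% and 1.11% in normoxia. The share was thus lower in hypoxia in both lines, while the values of RPS27L itself had opposite signs. The longest annotated coding transcript of RPS27L is 6434 nt, against 359 nt in RPS27, and the file does not say which length entered FPKM, so the ratio of levels depends on that choice. The comparison across libraries does not, provided that each gene had the same length in every library, which is not stated.

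RPL22L1 moved in opposite directions in the 2 lines. It had 94.4, 101 and 105 FPKM in KYSE410 hypoxia, against 135, 121 and 132 FPKM in normoxia, a log2 change of -0.36 ± 0.05 (SE) that was still negative but did not pass under median-of-ratios scaling. In KYSE150 it had 44.9, 50.1 and 46.6 FPKM in hypoxia, against 21.7, 32.3 and 21.7 FPKM in normoxia, a log2 change of 0.90 ± 0.15 (SE). The difference in response was -1.26 ± 0.17 (SE; limma, adjusted p = 7.01e-05). It stood at 48.8% to 50.9% of RPL22 in KYSE410 hypoxia, against 110% to 136% in normoxia, and at 12.9% to 14.1% in KYSE150 hypoxia, against 8.81% to 10.2% in normoxia. RPL22 is a large-subunit protein known to repress its own paralog in mice, and it changed by 0.91 in KYSE410 and 0.39 in KYSE150.

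RPL26L1 had 57.9, 63.1 and 65.0 FPKM in KYSE410 hypoxia, against 57.7, 54.3 and 53.8 FPKM in normoxia. This small log2 change of 0.16 turned to -0.23 once the trend with length and GC content was removed, and its call was lost without hypoxia library 2, hypoxia library 3 or normoxia library 3, with no filter, and under quantile and non-member scaling. In KYSE150 it fell to 23.8, 25.1 and 24.5 FPKM in hypoxia, against 39.7, 52.3 and 36.9 FPKM in normoxia, a log2 change of -0.77 ± 0.12 (SE). RPL7L1, a relative of RPL7, fell in both lines. It had 17.4, 17.0 and 17.8 FPKM in KYSE410 hypoxia, against 33.0, 35.1 and 34.4 FPKM in normoxia, and its log2 changes were -0.93 ± 0.04 in KYSE410 and -0.96 ± 0.08 in KYSE150. RPL36AL had 40.4, 40.6 and 40.5 FPKM in KYSE410 hypoxia, against 47.8, 45.8 and 46.7 FPKM in normoxia. Its log2 change was -0.20 there (0.04 under median-of-ratios scaling) and -0.26 in KYSE150, which did not pass, or -0.10 without normoxia library 2. Without normoxia library 3 the KYSE150 value passed. RPL39L, a paralog of RPL39 listed for KYSE150, fell to 36.4, 34.4 and 34.8 FPKM in hypoxia, against 45.6, 59.7 and 39.6 FPKM in normoxia, a log2 change of -0.43 ± 0.14 (SE), or -0.27 without normoxia library 2. Its call was lost on leaving out any 1 hypoxia library, with no filter and under median-of-ratios scaling.

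**Figure D4:**
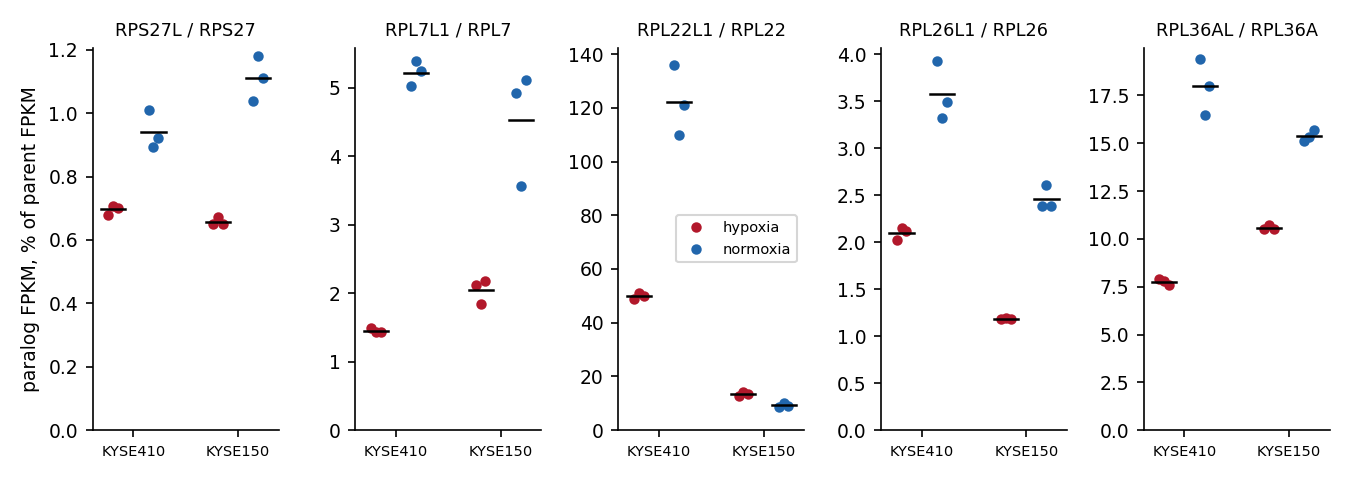
FPKM of each paralog as a percentage of its parent gene's FPKM, for the 3 libraries of each line and oxygen level (points) and their mean (bars); each panel has its own axis starting at 0. Each of these 5 paralogs is a smaller share of its parent in hypoxia, except RPL22L1 in KYSE150, at 12.9% to 14.1% in hypoxia against 8.81% to 10.2% in normoxia.

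Levels spanned a wide range. RPS2 had the highest mean, 3225 FPKM in KYSE410 and 3318 FPKM in KYSE150 over the 6 libraries of each line, and RPL12, RPS18 and RPL41 filled the next 3 places in both lines. RPL41, the smallest ribosomal protein, averaged 2937 FPKM in KYSE410 and 2066 FPKM in KYSE150. RPL14 was the lowest standard gene in KYSE410, at 75.1 FPKM, and RPS28 in KYSE150, at 56.9 FPKM. Across the 78 genes, mean FPKM fell with the length of the longest annotated coding transcript (Spearman rho -0.559 in KYSE410 and -0.533 in KYSE150). With the median coding transcript the values were -0.072 and -0.063. These are descriptions across genes, which share libraries and are not independent replicates. RPL14, for instance, has a longest coding transcript of 7072 nt beside a median of 916 nt, so its low FPKM may not compare with those of genes with short annotations only. Of the members, 76 have pseudogenes named after them, 1138 in the annotation in all, which can share reads. Such pseudogenes held 1.74% to 1.77% of all FPKM in KYSE410 hypoxia, against 1.04% to 1.09% in normoxia, and 1.68% to 1.70% in KYSE150 hypoxia, against 1.27% to 1.56% in normoxia. Their part in the members' values was not tested. Of the members, 37 overlap a gene on the opposite strand and 9 a coding gene on their own, and the strand setting of the counting is unknown.

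**Figure D5:**
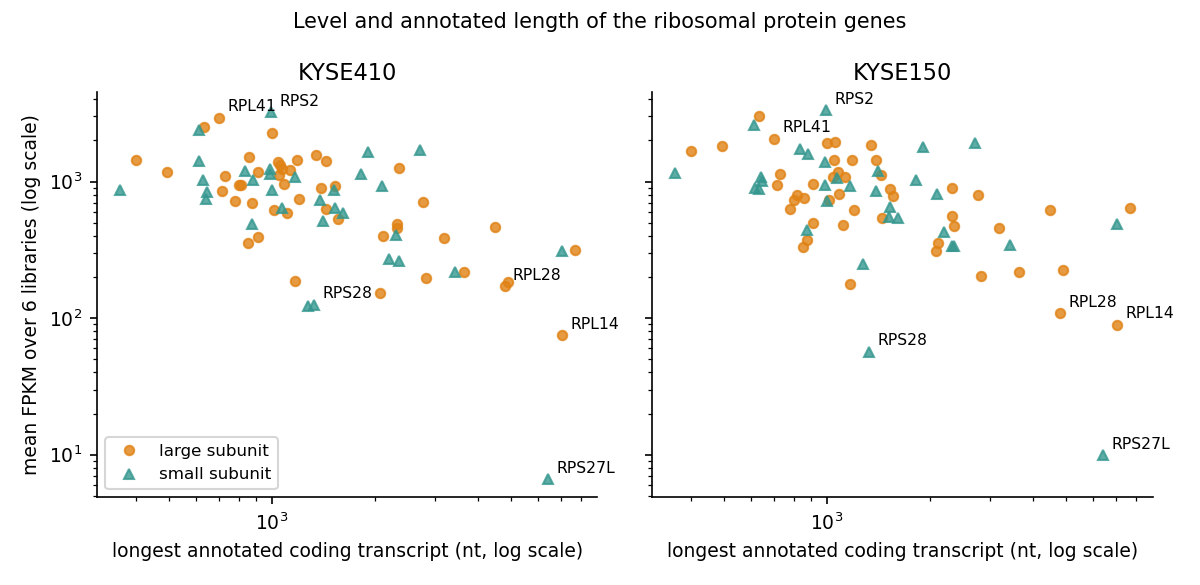
Mean FPKM over the 6 libraries of a line against the longest annotated coding transcript, both on log axes, for large-subunit (circles) and small-subunit (triangles) genes. RPL14 and RPL28, with long annotated transcripts, lie low, while RPL37, with the longest (7686 nt), averages 316 FPKM in KYSE410 and 636 FPKM in KYSE150, and RPS27L is lowest, at 6.63 FPKM in KYSE410 and 9.98 FPKM in KYSE150.

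In KYSE410 the response of other genes varied with annotated transcript length. Non-members had a median log2 change of 0.46 up to 700 nt, 0.28 up to 1000 nt, -0.05 up to 2000 nt, -0.24 up to 4000 nt and -0.44 above. Members had medians of 1.04, 0.96, 0.97, 0.91 and 1.01 in the same classes. With the length and GC trend removed, all 78 members were still called higher in KYSE410, against 31% of all genes, and their median was 0.68. In KYSE150 that removal gave 65 called higher and 1 lower, which was RPL36, against 27.4% and 43.5% of all genes.

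Other mRNAs are known to carry TOP tracts. Of 16 such non-ribosomal genes, all 16 were called higher in KYSE410 (median 0.84) and 12 in KYSE150 (median 0.44), with none lower, against 31.2% and 23.5% of all genes called higher. Without KYSE150 normoxia library 2, all 16 were called higher in that line. HNRNPA1, an RNA-binding protein, had 496, 501 and 499 FPKM in KYSE410 hypoxia, against 207, 199 and 210.0 FPKM in normoxia, a log2 change of 1.28, and 1.21 in KYSE150. EEF2, elongation factor 2, changed by 1.28 and 0.84, and EIF4B by 1.24 and 1.15. The vimentin gene VIM changed by 1.38 and 1.03, although it was near 1 FPKM in KYSE410 normoxia. Of the 78 mitochondrial ribosomal protein genes, which encode a separate ribosome, 24 were called higher and 37 lower in KYSE410 (median -0.07), against 31.2% and 51.9% of all genes. In KYSE150, 6 were called higher and 42 lower (median -0.35), against 23.5% and 38.8% of all genes, and 16 higher and 46 lower without normoxia library 2.

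Chaperones escort new ribosomal proteins to the assembling ribosome. Of 6 chaperone genes, 5 were called lower and 1 higher in each line, where 51.9% of all genes were called lower in KYSE410 and 38.8% in KYSE150. LTV1, a small-subunit assembly factor, had 5.12, 5.76 and 6.09 FPKM in KYSE410 hypoxia, against 41.7, 45.5 and 42.7 FPKM in normoxia. It changed by -2.74 ± 0.06 (SE) in KYSE410 and by -1.65 ± 0.08 in KYSE150. HEATR3, which carries RPL5 and is needed for its import, changed by -1.76 and -1.24. BCCIP, a partner of RPL23, changed by -0.79 and -0.85. GRWD1, a chaperone of RPL3, changed by -0.66 and -0.36. TSR2, a chaperone of RPS26, changed by -0.16 and -0.30. AAMP, whose yeast relative Sqt1 is a chaperone of Rpl10, was the higher one, at 0.51 and 0.44.

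Among 13 regulators of TOP mRNAs and mTOR, 3 were called higher and 8 lower in KYSE410, and 2 higher and 7 lower in KYSE150. The shares over all genes were 31.2% higher and 51.9% lower in KYSE410, and 23.5% and 38.8% in KYSE150. Without KYSE150 normoxia library 2, 4 were higher and 8 lower in that line. LARP1, which binds TOP tracts, had 15.4, 14.4 and 15.7 FPKM in KYSE410 hypoxia, against 51.7, 54.4 and 52.9 FPKM in normoxia, a log2 change of -1.74 ± 0.04 (SE). In KYSE150 it changed by -0.51 ± 0.13. LARP4, a poly(A)-binding relative, changed by -2.15 and -1.04, and the S6 kinase gene RPS6KB1 by -1.66 and -0.77. DDIT4, an inhibitor of mTOR induced by hypoxia, changed by 1.07 and 1.62. MYC, a transcription factor for ribosomal genes, had 4.29, 3.71 and 4.36 FPKM in KYSE410 hypoxia, against 13.0, 11.8 and 13.4 FPKM in normoxia, a log2 change of -1.42, and 0.10 in KYSE150, which did not pass, or 0.15 without normoxia library 2 (limma, adjusted p = 0.049). EIF4EBP1, a translation repressor under mTOR, had 127, 121 and 129 FPKM in KYSE410 hypoxia, against 106, 98.0 and 100.4 FPKM in normoxia, a log2 change of 0.31. In KYSE150 it fell to 56.7, 53.4 and 55.9 FPKM in hypoxia, against 232, 316 and 232 FPKM in normoxia, a log2 change of -2.20 ± 0.13 (SE).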

How the data were processed

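Messenger RNA of 12 libraries was analysed. For each cell line the authors deposited a single FPKM table. Its unit was inferred from the values. Which program counted reads, with which annotation and strand setting, is not given in the sources used here. Per the submitters' processing notes, HISAT2 2.2.1, fastp 0.22.0 and bcl2fastq 2.20 were used with build hg38, in roles the notes do not state. Groups came from the labels, and depth per library is unknown. Values of log2(FPKM + 1) were fitted with limma 3.58.1 (R 4.3.3), its empirical Bayes step allowing for a trend with the mean. This scale understates the change of low genes. Genes had a mean of at least 1 FPKM (12692 in KYSE150, 12054 in KYSE410), and calls used a Benjamini-Hochberg adjusted p under 0.05 over all tested genes. Difference in response and the normoxic line difference came from a joint fit of 13421 genes in both tables. The fit relative to the median member subtracted each library's median log2 level over the 77 standard genes. Fits were also run on simulated data with independent noise for each gene and library, a setting that holds no shift of a whole library. Gene positions and lengths came from GENCODE 29, and promoter sequences from RefSeq (GRCh38.p14), which 63 members matched. Python 3.11.15, pandas 2.3.3, numpy 2.4.6 and matplotlib 3.10.9 were used. Alternatives covered scaling, pseudocount, filter, trend, threshold, length and GC content, the replicate number as a block and each library left out. The members and gene lists were chosen with earlier results of these data known. Named genes are the paralogs with their parents, fixed functional genes, those with the largest or smallest change, level, difference in response or relative move per line, the members least like the median member, and up to 4 called genes of each other list. The genes named for the normoxic line difference, RPL23A, RPL24, TSR2, AAMP and the members called lower under quantile normalization were chosen after their values were seen.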

Additional observations from a re-analysis of the deposited data

Results flagged for a closer look

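The difference in response between the lines was flagged because its own test passed for most members: 77 had a more positive response in KYSE410 than in KYSE150 (limma, joint fit). The named members among these were RPL34 (1.14), RPL36 (1.14), RPL38 (1.11), RPS27L (1.08), RPL4 (0.48), RPL3 (0.46) and RPS13 (0.46), each as KYSE410 minus KYSE150 on the log2 scale. Among paralogs outside the naming rule, RPL26L1 differed by 0.93 and RPL22L1 by -1.26. RPS27L and RPL26L1 were called higher in KYSE410 and lower in KYSE150, and RPL22L1 the reverse. Not all of these calls held: that of RPS27L in KYSE150 was lost on leaving out any 1 hypoxia library and under several scalings, that of RPL22L1 in KYSE410 under median-of-ratios scaling, and RPL26L1 in KYSE410 became -0.23 with the length and GC trend removed. The KYSE410 normoxia libraries, with sheet numbers 38 to 40 against 50 to 58 for all others, enter every one of these differences. A difference between library sets cannot be told apart from them. KYSE150 normoxia library 2 also enters every one of these differences. Without it, those of RPL36, RPL38 and RPS27L were 0.93, 0.92 and 0.92, and that of RPL22L1 was -1.45. Single libraries were not tested as outliers within groups of 3. The SD over genes of the log2 difference between replicates was 0.339 and 0.369 for the pairs that hold KYSE150 normoxia library 2, against 0.153 to 0.197 for all other pairs.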

How the results depend on the processing

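In KYSE410, all 78 members were called higher under every alternative run except quantile normalization (64 higher, 2 lower), and leaving out each library gave 78 higher and 0 lower. In KYSE150 the count of 22 higher and 1 lower depended on the setting. It was 65 higher with the length and GC trend removed, and 57 higher and 0 lower under median-of-ratios scaling. Scaling to the sum over non-members gave 58 and 0. With no filter the counts were 4 and 0, and at a threshold of 0.01 they were also 4 and 0. Quantile normalization gave 33 higher and 4 lower (RPL36, RPL6, RPL7 and RPS7). Of all genes, 27.4% were called higher with the trend removed and 30.8% under median-of-ratios scaling. The shares were 26.9% when scaled to non-members and 10.2% with no filter. Under quantile normalization 30.9% were called higher and 31.9% lower. The share at the threshold of 0.01 is not given. Leaving out each KYSE150 library gave 4 to 75 higher and 0 to 1 lower, the 75 coming without normoxia library 2, against 19.5% to 28.6% of all genes higher. With normoxia library 2 left out and the trend removed, an alternative chosen after seeing the data, 75 were higher, against 29.1% of all genes. For the difference in response, quantile normalization gave 35 higher and 1 lower (RPL3), the added alternative gave 2 lower (RPS13 and RPS26), and leaving out each library gave 73 to 77 higher. Of all genes, quantile normalization called 29.3% higher and 30% lower, and the added alternative 37.3% lower. Leaving out each library called 25% to 29.8% of all genes higher. For the line difference in normoxia, 11 were higher with the trend removed, 17 under quantile normalization and 5 when scaled to non-members, and 3 to 12 on leaving out each library. The shares of all genes called higher were 41.5%, 42.4%, 41.4% and 38.2% to 41.3%. Relative to the median member, leaving out each library gave 3 to 14 higher and 19 to 33 lower in KYSE150. The shares of all genes there were 5.21% to 9.42% and 42.6% to 76.3%. In KYSE410 it gave 18 to 27 higher and 23 to 32 lower, against 3.97% to 4.42% and 89.5% to 90.4% of all genes. In KYSE410 the log2 large-to-small ratio, hypoxia minus normoxia, was -0.1395 by medians. By sums it was 0.029 to 0.0471 on leaving out each library.

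Single genes turned sign as follows. Under quantile normalization RPS7 became -0.238 in KYSE150 and -0.2106 in KYSE410, RPL3 -0.1324 and RPS27A -0.0368 in KYSE410, and the differences in response of RPL3 and RPS13 -0.2415 and -0.0676. With the length and GC trend removed, RPL26L1 became -0.2318 in KYSE410, and the differences of RPL36AL and RPS13 became -0.4476 and -0.0394. With normoxia library 2 also left out, the differences of RPL36AL, RPS13 and RPS26 became -0.5287, -0.1246 and -0.2777. Median-of-ratios scaling put RPL36AL at 0.0432 in KYSE410. In each case the cause was not tested. With the replicate number as a block, 19 members were higher and 1 lower in KYSE150, against 23% and 38.1% of all genes. In KYSE410, 78 were higher, against 30.9%. For the difference in response, 76 were more positive, against 26.6%. The normoxic line difference had 3 higher and 51 lower, against 40.1% and 39%. Relative to the median member, 6 were higher and 25 lower in KYSE150, against 7.36% and 53.2%. In KYSE410 these counts were 23 and 30, against 4.33% and 90.4%. Deviations of libraries with the same number correlated at -0.069, 0.084 and 0.051 in KYSE150 and -0.045, -0.008 and 0.02 in KYSE410. Libraries with different numbers gave -0.097 to 0.11. No pairing by number was seen, and 3 libraries per group are too few to show that there was none. Depth is unknown, so no counting error can be given, and 3 libraries per group limit the precision.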
